A study of Homo sapiens with 24 samples.

Results

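ALDH1B1, BOD1, FUCA1, GLIS2, FAM110C and NRAS had higher mRNA levels in TFAP2C knockdown cells than in non-targeting control cells in all 3 genome-wide comparisons of the study. They are 6 genes of 27427 gene symbols in the deposited tables, and they were chosen for this direction: for each gene the FPKM (fragments per kilobase of transcript, scaled to library size) of its RefSeq accessions were summed, and the knockdown sum had to exceed the control sum in every comparison. They are not all the genes with this direction. Of 10205 symbols with at least 1 FPKM in each of the 6 groups, 1060 had it. Of 8051 symbols tested in all 3 comparisons, 16 rose with the authors' q under 0.05 in each, the 6 genes among them. How the 6 genes were taken from the others is not stated. The direction, fold and q-value of the 6 genes in the 3 comparisons are therefore a description and are given as such.

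Messenger RNA was sequenced from HER2-positive human breast carcinoma lines, per the labels. The groups used here are SKBR3 cells transfected with TFAP2C siRNA against SKBR3 cells with a negative control siRNA, HCC1954 cells with the same pair of siRNAs, and HCC1954 cell clones with stable lentiviral TFAP2C shRNA against clones with a control shRNA. Each group had 3 samples, which makes 18 samples of the 24 in the series. The siRNA cells were incubated for 72 to 96 h, and the lines were not authenticated, per the labels. TFAP2C was knocked down with 1 siRNA and 1 shRNA, so nothing here separates their effects on other transcripts from those on TFAP2C. The line HCC1569 is not analysed here. Each deposited table holds 1 pooled FPKM per group. Values of single samples, their spread and their depth are therefore unknown. The labels do not tell whether triplicates came from separate cultures, and the authors' p-values and q-values may measure technical spread.

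TFAP2C encodes AP-2gamma, a transcription factor of the AP-2 family that binds GC-rich sites of the form GCCNNNGGC, and that both activates and represses genes in mammary epithelium. The 6 genes belong to different systems. NRAS is a membrane-bound GTPase that passes signals from receptor tyrosine kinases to the RAF kinases. ALDH1B1 is a mitochondrial aldehyde dehydrogenase, and FUCA1 is the lysosomal enzyme that removes alpha-L-fucose from glycoproteins. GLIS2 is a zinc finger transcription factor related to the GLI factors of the Hedgehog pathway. BOD1 is needed for chromosomes to attach to both spindle poles and inhibits the phosphatase PP2A-B56 at kinetochores, and FAM110C is a protein found at centrosomes and microtubules.

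The stretch before the transcription start was available for 5 of the 6 genes (RefSeq, GRCh38.p14), all but GLIS2. It is shown for 4 of them, since AP-2gamma binds such GC-rich sequence and these genes moved in 1 direction. Each run holds the 250 bases upstream of the start, 5' to 3' on the gene's own strand, with GCCNNNGGC and the same form with 1 more N in the middle in capitals. Both forms read alike on either strand. The regions are chr9:38392452-38392701 (plus strand) for ALDH1B1, chr1:114716772-114717021 (minus strand) for NRAS, chr1:23868291-23868540 (minus strand) for FUCA1 and chr5:173616651-173616900 (minus strand) for BOD1.
ALDH1B1: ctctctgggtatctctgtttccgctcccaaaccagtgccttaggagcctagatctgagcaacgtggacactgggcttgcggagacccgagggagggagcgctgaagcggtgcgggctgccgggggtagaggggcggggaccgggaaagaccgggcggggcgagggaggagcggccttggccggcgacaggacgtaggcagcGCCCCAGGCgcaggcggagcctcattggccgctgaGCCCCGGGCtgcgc
NRAS: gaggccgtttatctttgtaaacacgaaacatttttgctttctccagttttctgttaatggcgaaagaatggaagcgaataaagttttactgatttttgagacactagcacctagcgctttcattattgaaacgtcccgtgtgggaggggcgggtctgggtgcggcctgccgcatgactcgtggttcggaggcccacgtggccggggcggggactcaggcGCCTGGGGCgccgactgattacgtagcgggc
FUCA1: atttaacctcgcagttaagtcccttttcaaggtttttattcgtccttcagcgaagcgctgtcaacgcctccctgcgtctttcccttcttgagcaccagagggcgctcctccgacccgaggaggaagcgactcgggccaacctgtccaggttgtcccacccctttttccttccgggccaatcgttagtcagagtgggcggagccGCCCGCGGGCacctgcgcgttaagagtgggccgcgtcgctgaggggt
BOD1: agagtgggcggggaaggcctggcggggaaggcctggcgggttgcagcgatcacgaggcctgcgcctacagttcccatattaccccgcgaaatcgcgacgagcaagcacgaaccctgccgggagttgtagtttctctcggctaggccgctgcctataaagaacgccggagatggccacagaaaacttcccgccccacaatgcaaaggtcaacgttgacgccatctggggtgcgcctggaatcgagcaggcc

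GCCNNNGGC occurred in the ALDH1B1 region at 2 places, 49 to 41 and 14 to 6 bases before the start, and in the NRAS region once, 31 to 23 bases before it. The FUCA1 region held the longer form 47 to 38 bases before the start, partly overlapping the reverse of GGGCGG at 49 to 44 bases. The BOD1 and FAM110C regions held neither form. Of 8310 regions of genes expressed in all 6 groups, 28.2% held GCCNNNGGC and 27.9% the longer form. All 5 regions held the GC box GGGCGG on 1 strand or the other, FAM110C at 7 places, against 69.9% of those 8310. CCAAT or its reverse stood in the ALDH1B1, FUCA1 and FAM110C regions, against 36.1%. GC content was 78.4% for FAM110C, 70.4% for ALDH1B1, 62% for BOD1, 60.4% for FUCA1 and 54.4% for NRAS, with a median of 65.6% over the 8310 regions. These matches describe the letters of the regions, and binding was not measured.

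The target itself had fewer transcripts in each knockdown group. TFAP2C stood at 53.9 FPKM in SKBR3 siRNA cells against 157 FPKM in their control. In HCC1954 it stood at 22.0 FPKM with siRNA against 92.4 FPKM in the control, and at 3.46 FPKM with shRNA against 81.0 FPKM in the control.

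The shRNA knockdown group stood apart from the other groups and went against its line label. Across 10205 expressed symbols, those with at least 1 FPKM in each of the 6 groups, the Spearman correlation of knockdown with control levels was 0.965 for SKBR3 siRNA, 0.989 for HCC1954 siRNA and 0.784 for shRNA. The shRNA knockdown group correlated with the HCC1954 siRNA control at 0.697 and with the SKBR3 siRNA control at 0.728, while the shRNA control correlated with the HCC1954 siRNA control at 0.844. With the siRNA knockdown groups the shRNA knockdown group correlated about equally, at 0.702 for HCC1954 and 0.701 for SKBR3. These values run across separately normalised tables. Of the epithelial markers, ERBB2, the HER2 gene, stood at 16.9 FPKM in shRNA knockdown clones against 1315 FPKM in control clones, and E-cadherin CDH1 at 10.9 against 116 FPKM. Keratin KRT19 stood at 634 against 19.9 FPKM in the same clones, and at 4.01 against 7.51 FPKM in HCC1954 siRNA cells and their control. PECAM1, an endothelial marker, stood at 0.0180 against 11.6 FPKM in the clones and at 18.5 against 27.0 FPKM in HCC1954 siRNA cells and their control. Summed over 6 epithelial markers the levels were 5228 against 6558 FPKM in SKBR3, 6671 against 7347 FPKM with siRNA in HCC1954 and 1949 against 3163 FPKM with shRNA. No fibroblast marker of 7 exceeded 1.95 FPKM in any group, and among leukocyte markers CD68 was highest, at up to 36.6 FPKM. Knockdown, clone and line cannot be told apart in the shRNA comparison, so the counts of symbols higher in every comparison are also given without it.

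**Figure D1:**
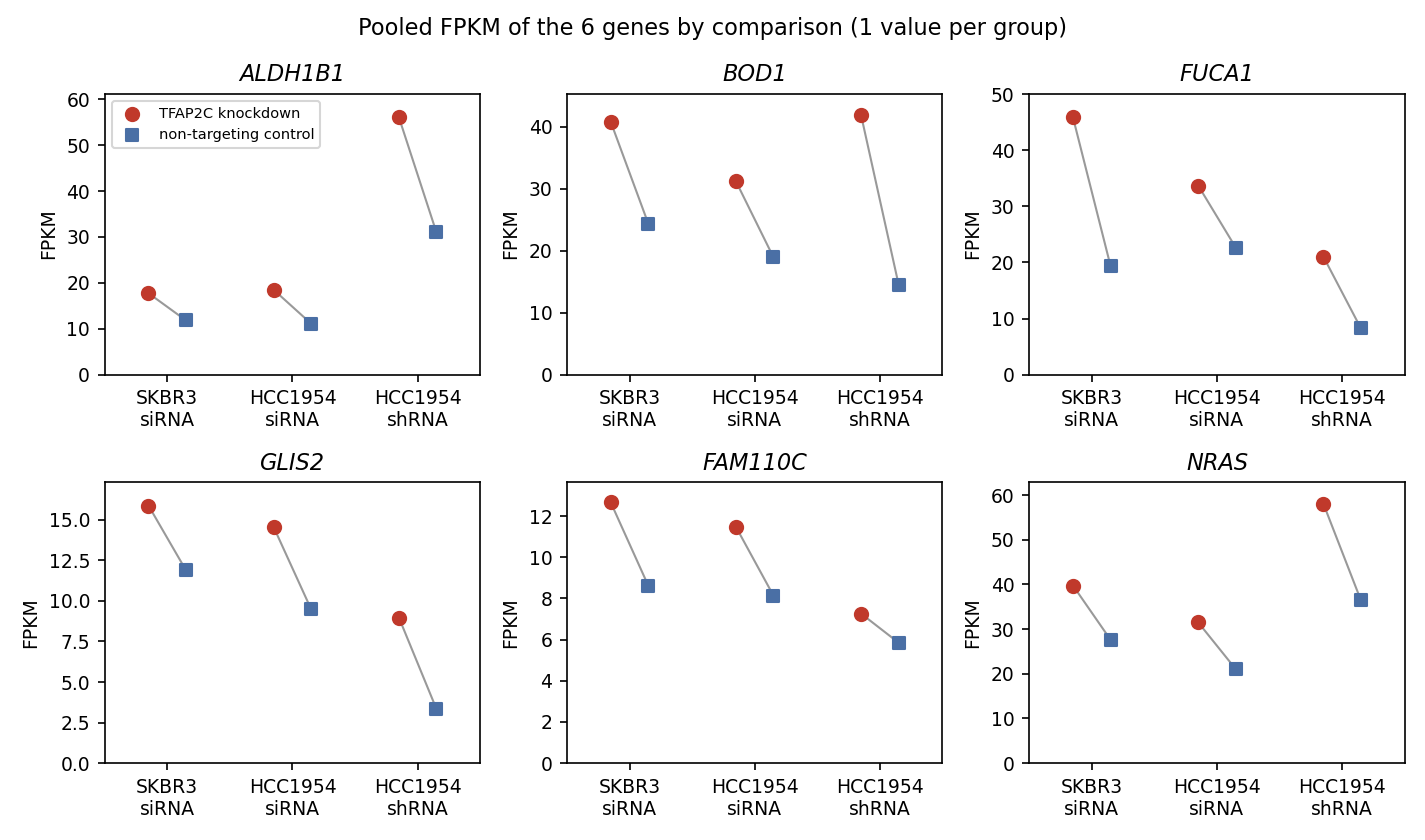
Pooled FPKM (y axis, from 0) of the 6 genes in each comparison (x axis), with 1 red circle for the TFAP2C knockdown group and 1 blue square for its non-targeting control, joined by a line. Each red circle lies above its blue square, from 7.26 against 5.85 FPKM for FAM110C with shRNA to 58.1 against 36.4 FPKM for NRAS with shRNA.

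NRAS stood at 39.8 FPKM in SKBR3 siRNA cells against 27.6 FPKM in their control. In HCC1954 it stood at 31.5 FPKM with siRNA against 21.0 FPKM in the control, and at 58.1 FPKM with shRNA against 36.4 FPKM in the control. The rise was 1.44-fold, 1.50-fold and 1.59-fold in that order, the narrowest range among the 6 genes. As log2 ratios these are 0.53 ± 0.18, 0.58 ± 0.30 and 0.67 ± 0.13, where the error is the standard error implied by the authors' deposited statistic (log2 ratio divided by statistic). For all of the 6 genes, at least with siRNA in HCC1954, the deposited p-values are smaller than such errors would give, so the errors may be too large. NRAS lies on chromosome 1, 115247090 to 115259392 on the minus strand (GRCh37, GENCODE), and the tables hold 1 accession of it, NM_002524.

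Levels of ALDH1B1 were close to each other in both siRNA comparisons and higher in the shRNA clones. It stood at 17.7 FPKM in SKBR3 siRNA cells against 11.8 FPKM in their control, a 1.50-fold rise (log2 ratio 0.59 ± 0.23). In HCC1954 siRNA cells it stood at 18.5 FPKM against 11.1 FPKM in their control, 1.67-fold higher (0.74 ± 0.34). In shRNA clones the level was 56.1 FPKM against 31.0 FPKM in the control clones, 1.81-fold higher (0.86 ± 0.15). The shRNA control thus exceeded the siRNA knockdown level of the same line, although the tables were normalised separately and the spread is unknown. ALDH1B1 is on chromosome 9, 38392699 to 38398658 on the plus strand.

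FUCA1 had the largest rise of the 6 genes in SKBR3, 45.9 FPKM in siRNA cells against 19.4 FPKM in their control, or 2.37-fold (log2 ratio 1.24 ± 0.21). In HCC1954 siRNA cells it stood at 33.7 FPKM against 22.7 FPKM, 1.49-fold higher (0.57 ± 0.33). In shRNA clones it stood at 21.1 FPKM against 8.25 FPKM, 2.55-fold higher (1.35 ± 0.30). FUCA1 spans 24171567 to 24194780 on the minus strand of chromosome 1.

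BOD1 stood at 40.8 FPKM in SKBR3 siRNA cells against 24.4 FPKM in their control, summed over 2 accessions, a 1.67-fold rise. In HCC1954 siRNA cells the sums were 31.2 FPKM against 18.9 FPKM, 1.65-fold higher, and in shRNA clones 41.9 FPKM against 14.5 FPKM, 2.89-fold higher. The 3 knockdown levels lay closer together than the folds, since the shRNA control was the lowest of the 6 groups. Nearly all of the signal came from NM_138369, which held 93.9% to 100.0% of the sum in every group and had log2 ratios of 0.80 ± 0.22, 0.72 ± 0.34 and 1.56 ± 0.30. The second accession, NM_001159651, was not tested in any table. It was listed at 0.957 FPKM in SKBR3 siRNA cells against 1.48 FPKM in their control, opposite in direction to the gene, and at 1.71 FPKM in shRNA clones against 0.886 FPKM in the control clones. BOD1 lies on chromosome 5, 173034148 to 173043662 on the minus strand.

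GLIS2 had the widest range of folds. Its summed level was 15.9 FPKM in SKBR3 siRNA cells against 11.9 FPKM in their control, 1.34-fold higher. In HCC1954 siRNA cells it was 14.5 FPKM against 9.47 FPKM, 1.54-fold higher, and in shRNA clones 8.97 FPKM against 3.34 FPKM, 2.69-fold higher. The shRNA knockdown level was thus below that of the siRNA control of the same line. NM_032575 held 95.5% to 99.0% of the sum, with log2 ratios of 0.39 ± 0.22, 0.66 ± 0.35 and 1.40 ± 0.37. NM_001318918, at 0.722 FPKM or less in each group, was not tested, and in HCC1954 it was listed at 0.146 FPKM in siRNA cells against 0.352 FPKM in their control.

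GLIS2 lies on chromosome 16, 4364762 to 4389598 on the plus strand, where 8049 bases of the gene overlap PAM16, a gene of mitochondrial protein import on the other strand. This overlap is of the gene spans: the main GLIS2 transcript shares no stretch of 50 bases with a PAM16 transcript. The strandedness of counting is not stated in the labels, and reads from exons shared with an overlapping non-coding gene on the other strand cannot be told apart. PAM16 was listed at 12.8 FPKM in SKBR3 siRNA cells against 13.6 FPKM in their control and at 24.0 against 19.4 FPKM in HCC1954 siRNA cells and their control, not called in either case. It rose with shRNA, to 14.8 FPKM in the clones against 4.70 FPKM in the control clones (q = 5.65e-04 in the authors' deposited table). The part of this overlap in the GLIS2 levels was not tested.

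FAM110C had the smallest rise with shRNA. It stood at 12.7 FPKM in SKBR3 siRNA cells against 8.62 FPKM in their control, 1.47-fold higher (log2 ratio 0.55 ± 0.23). In HCC1954 siRNA cells it stood at 11.5 FPKM against 8.14 FPKM, 1.41-fold higher (0.50 ± 0.35). In shRNA clones the level was 7.26 FPKM against 5.85 FPKM, 1.24-fold higher (0.31 ± 0.29). This ratio was close to its implied standard error, but the deposited Cuffdiff p was 5e-05, so that error may be too large. FAM110C lies near the end of chromosome 2, 38814 to 46870 on the minus strand.

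In the authors' deposited table of each comparison the main accession of all 6 genes had q under 0.05. In SKBR3 q was 4.41e-04 for 5 of them and 2.51e-03 for GLIS2, while 12.3% of 9901 tested symbols were called higher. In HCC1954 with siRNA q was 4.25e-03 for 5 and 0.0219 for FAM110C in the authors' deposited table, and 2.31% of 10771 tested symbols were called higher and 0.966% lower. With shRNA the authors' deposited table gave q = 1.21e-04 for all 6, and 36.3% of 9562 tested symbols were called higher. In all 3 comparisons together, 16 of 8051 symbols tested throughout, or 0.199%, were called higher, and these 6 were among them, while 0.397% were called lower. Without the shRNA comparison 61 of 8905 symbols, or 0.685%, were called higher. Since the genes were chosen on these comparisons, nothing is read from their calls. By direction alone, 1060 of 10205 expressed symbols, or 10.4%, had a higher sum in knockdown in all 3 comparisons, and 18% had a lower one. Without the shRNA comparison 22.2% were higher. Single comparisons gave 40% in SKBR3, 47.9% with siRNA in HCC1954 and 48.8% with shRNA.

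Among the expressed symbols the 6 genes took different places in each comparison. In HCC1954 with siRNA their log2 ratios, 0.50 to 0.74, lay between percentiles 96.8 and 99.1. In SKBR3 they ran from 0.42 for GLIS2 at percentile 89.8 to 1.24 for FUCA1 at percentile 99.1. With shRNA, where ratios of all genes were most spread out, they ran from 0.31 for FAM110C at percentile 65.2 to 1.53 for BOD1 at percentile 95.4. The median log2 ratios of the 6 genes were 0.57, 0.60 and 1.10, against -0.085, -0.0098 and -0.025 for all expressed symbols. Ranked by the smallest of its 3 log2 ratios, shRNA included, BOD1 stood at place 10 of 10205, ALDH1B1 at 17, FUCA1 at 19, NRAS at 30, GLIS2 at 49 and FAM110C at 93.

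**Figure D2:**
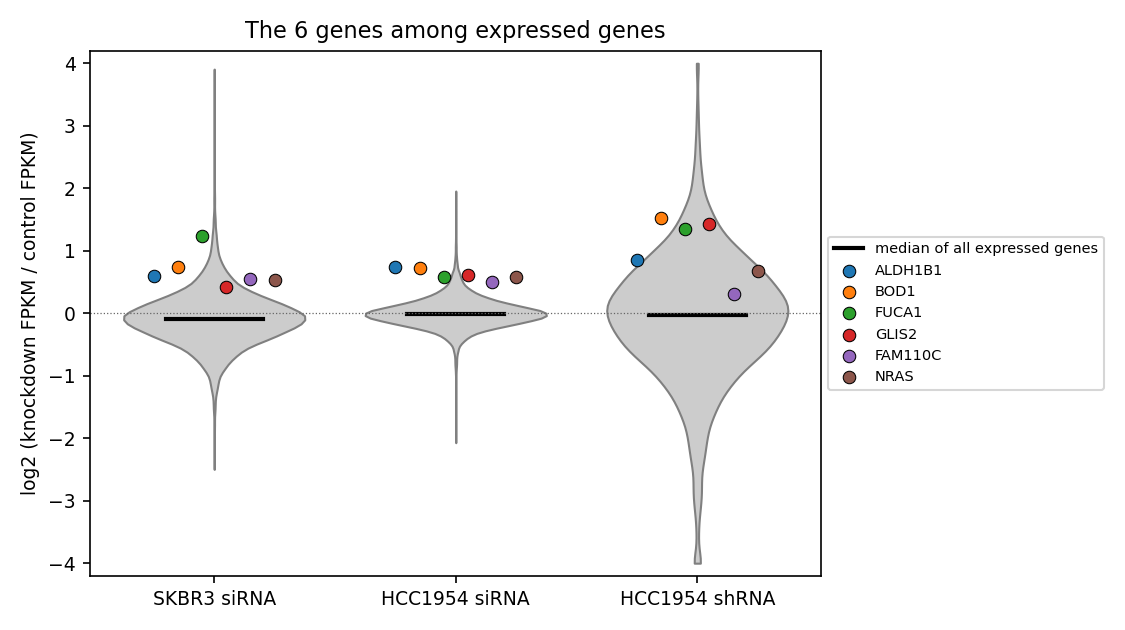
Log2 ratio of knockdown over control FPKM (y axis) in the 3 comparisons (x axis), with grey shapes for the distribution over 10205 expressed symbols (values beyond 4 units drawn at 4), black bars for their medians and coloured circles for the 6 genes. All 18 circles lie above 0, within the upper part of the narrow HCC1954 siRNA distribution and inside the broad body of the shRNA distribution.

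Of the 6 genes, FAM110C with shRNA lay nearest to the threshold of equal levels. Over all expressed symbols, the nearest inside were PFDN4, a prefoldin gene, at 6.95 FPKM in shRNA clones and in control clones, and ZFC3H1, at 7.12 FPKM in HCC1954 siRNA cells and in their control. The nearest outside was NUP42, a nuclear pore gene, with 15.1 against 6.09 FPKM in SKBR3 and 14.9 against 14.3 FPKM with shRNA, but 16.02 FPKM in HCC1954 siRNA cells and in their control. ERRFI1, an inhibitor of ERBB receptors, likewise missed with siRNA in HCC1954, at 342.6 against 342.7 FPKM. It stood at 40.2 against 16.6 FPKM in SKBR3 and at 255 against 102 FPKM with shRNA.

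The folds of the 6 genes differed in their spread over the comparisons. NRAS, FAM110C and ALDH1B1 varied least, their largest fold being 1.11, 1.18 and 1.20 times their smallest. FUCA1, BOD1 and GLIS2 varied more, by factors of 1.71, 1.75 and 2.01. Each of the 6 genes except FAM110C had its largest fold with shRNA, and FAM110C had its largest in SKBR3. The Euclidean distance over the 3 log2 ratios was smallest between ALDH1B1 and NRAS, at 0.25, and largest between BOD1 and FAM110C, at 1.25.

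By the same distance the expressed genes most like NRAS were PRELID3A at 0.066, the mitochondrial carrier gene SLC25A21 at 0.071 and CLDN15, a claudin gene, at 0.18. ALDH1B1 was nearest to LHX6, a LIM homeobox gene, at 0.15, PRELID3A at 0.18 and TMCC3 at 0.21. Nearest to FUCA1 were PCDH7, a protocadherin gene, at 0.25, HSPBAP1 at 0.30 and INPP4B, a phosphoinositide phosphatase gene, at 0.32. BOD1 was nearest to the phosphatase gene DUSP1 at 0.20, the haem oxygenase gene HMOX1 at 0.27 and LINC-PINT at 0.31. For GLIS2 the nearest were AGO2, the Argonaute slicer gene of RNA interference, at 0.16, DUSP1 at 0.17 and AP5B1 at 0.19. Close to FAM110C were RHBDF2 at 0.107 and KDM3A, a histone demethylase gene, at 0.109. Each likeness rests on 3 ratios of pooled values, and of the genes named here KDM3A alone was called higher in all 3 comparisons, and KDM3A and TMCC3 in both siRNA comparisons. The implied standard errors of the 6 genes, 0.13 to 0.37, are of the size of these distances, 0.066 to 0.32, although these errors may be too large.

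The related GTPase gene HRAS did not have the direction of NRAS in SKBR3. Its main accession fell in SKBR3, to 8.65 FPKM in siRNA cells against 21.7 FPKM in their control (q = 4.41e-04 in the authors' deposited table). The HRAS sum there was 20.6 against 39.2 FPKM. In HCC1954 the main accession was not called, at 14.6 against 16.3 FPKM with siRNA and 16.2 against 16.8 FPKM with shRNA. No test of the difference between NRAS and HRAS was made.

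List counts, and the levels of list genes given with them, use the accession with most FPKM of each gene, unless a sum is given. Of 19 tested RAS family genes and regulators other than NRAS, 6 rose and 3 fell in SKBR3, against 12.3% and 21% of all tested symbols. Their median log2 ratio was 0.19, against -0.10 for all tested symbols. SPRED1, an inhibitor of RAS signalling, rose to 4.61 FPKM in siRNA cells against 2.08 FPKM in their control, and PTPN11, a phosphatase that promotes RAS activation, to 43.3 against 26.1 FPKM for its main accession, although its sum over accessions was 56.24 against 56.05 FPKM. With shRNA 6 of 17 rose and 6 fell, against 36.3% and 39.2% of all tested symbols, with a median of -0.040 against -0.034. NF1, a RAS GTPase-activating protein, fell to 2.07 FPKM in the clones against 11.7 FPKM in the control clones. FNTA, a subunit of the enzymes that add lipid anchors to RAS proteins, fell to 17.7 against 53.3 FPKM. With siRNA in HCC1954 the Cuffdiff q-values called 0 of 20, and 0 were higher and 1 lower at an unadjusted p under 0.05.

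In SKBR3, 2 of 8 tested RAF-MEK-ERK genes fell and 0 rose (0 higher at an unadjusted Cuffdiff p under 0.05), against 21% and 12.3% of all tested symbols. MAPK3, an ERK kinase gene, fell to 15.7 FPKM in siRNA cells against 27.7 FPKM in their control. With siRNA in HCC1954, Cuffdiff called 0 of 10, with 1 higher and 0 lower at an unadjusted p under 0.05. With shRNA 3 of 7 rose and 2 fell, against 36.3% and 39.2% of all tested symbols, with MAP2K1 at 20.3 FPKM in the clones against 70.7 FPKM in the control clones and BRAF at 5.46 against 3.23 FPKM.

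Most called aldehyde dehydrogenase genes moved against ALDH1B1. In SKBR3, 6 of 11 tested genes of the family other than ALDH1B1 fell and 1 rose, against 21% and 12.3% of all tested symbols, with a median log2 ratio of -0.46. ALDH2, the mitochondrial enzyme that clears acetaldehyde, fell to 33.7 FPKM in siRNA cells against 108 FPKM in their control. ALDH4A1, an enzyme of proline breakdown, fell to 5.37 against 16.5 FPKM, and ALDH1A3, a retinaldehyde dehydrogenase, to 32.3 against 60.4 FPKM. The sums were 46.3 against 155 FPKM for ALDH2, 15.7 against 40.5 FPKM for ALDH4A1 and 47.1 against 85.8 FPKM for ALDH1A3. ALDH3B1 rose to 18.5 against 10.7 FPKM for its main accession, with a sum of 36.7 against 27.0 FPKM. With shRNA 4 of 10 fell and 1 rose, against 39.2% and 36.3% of all tested symbols, with a median of -0.61 against -0.034. ALDH1A3 fell to 130 FPKM in the clones against 292 FPKM in the control clones, and ALDH5A1, the succinic semialdehyde dehydrogenase, to 9.17 against 19.6 FPKM. ALDH2 was the gene that rose, at 8.20 FPKM in the clones against a level near 0 in the control clones (2.05e-04 FPKM), for which no fold is given. With siRNA in HCC1954, Cuffdiff called 0 of 13, with 0 higher and 3 lower at an unadjusted p under 0.05.

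**Figure D3:**
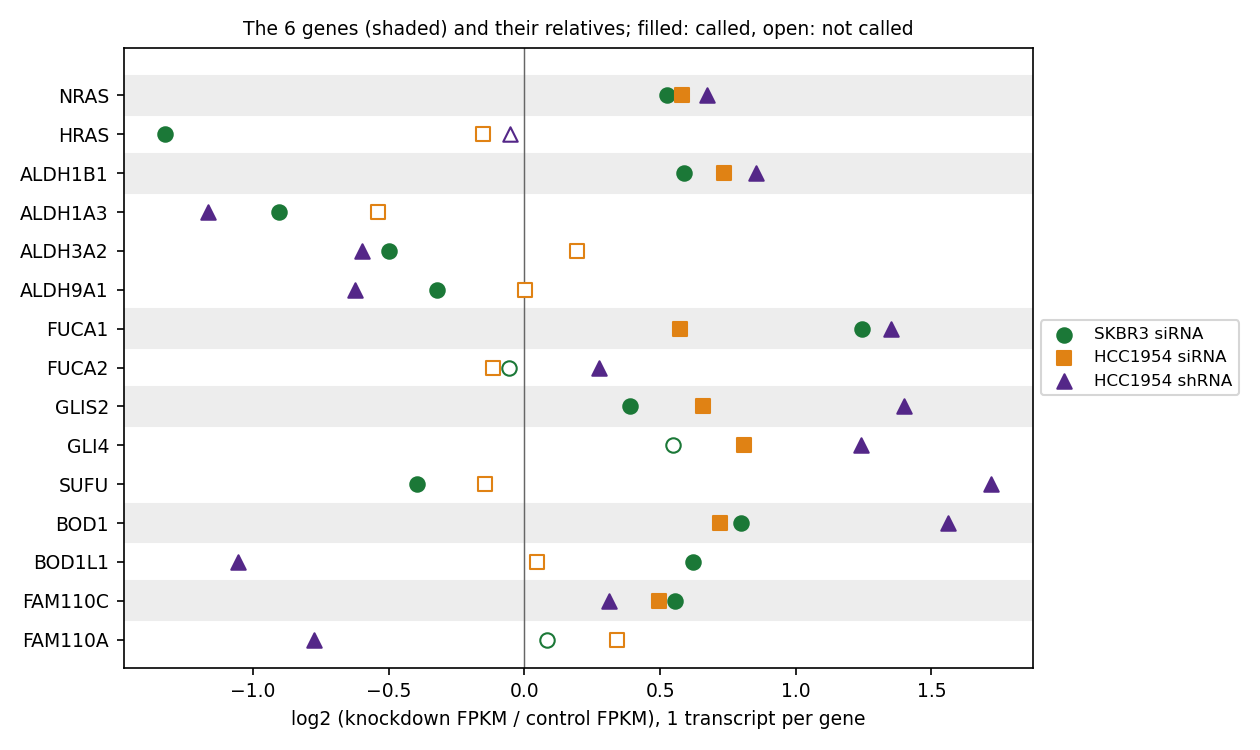
Log2 ratio of knockdown over control FPKM (x axis) of the main accession of the 6 genes (shaded rows) and of 9 tested relatives or pathway genes chosen after their values were seen (rows), with 1 marker per comparison, filled where the authors' q was under 0.05 and open where not. The 3 markers of each shaded row lie to the right of 0, while HRAS, ALDH1A3, ALDH3A2, ALDH9A1, SUFU, BOD1L1 and FAM110A have filled markers on the left.

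The lysosomal glycosidases, which strip sugars from glycoproteins and glycolipids as FUCA1 does, were called in both directions in SKBR3. There 3 of 14 tested genes other than FUCA1 rose and 2 fell, against 12.3% and 21% of all tested symbols. NEU1, the lysosomal sialidase, rose to 4.82 FPKM in siRNA cells against 2.79 FPKM in their control. With shRNA 9 of 14 fell and 2 rose, against 39.2% and 36.3% of all tested symbols, and their median log2 ratio was -0.78. NAGLU fell to 6.04 FPKM in the clones against 21.1 FPKM in the control clones, GLB1, the lysosomal beta-galactosidase, to 6.84 against 20.1 FPKM, and GUSB, the beta-glucuronidase, to 9.46 against 27.6 FPKM for its main accession, with a sum of 16.4 against 31.8 FPKM. The second fucosidase gene, FUCA2, rose with shRNA, to 35.1 FPKM in the clones against 29.0 FPKM in the control clones. It was not called with siRNA, at 34.2 against 35.5 FPKM in SKBR3 and 39.5 against 42.8 FPKM in HCC1954. Cuffdiff called 0 of the 16 tested genes with siRNA in HCC1954, with 1 higher and 1 lower at an unadjusted p under 0.05.

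Few Hedgehog and GLI-related genes were expressed enough to be tested. GLI4, a zinc finger gene, rose with siRNA in HCC1954, to 6.71 FPKM against 3.83 FPKM in the control, and with shRNA, to 9.65 FPKM in the clones against 4.08 FPKM in the control clones. In SKBR3 it was listed at 5.76 against 3.95 FPKM and was not called (q = 0.0656 in the authors' deposited table). It was the 1 called gene of 5 tested with siRNA in HCC1954. SUFU, a repressor of GLI factors, fell in SKBR3, to 3.36 FPKM in siRNA cells against 4.43 FPKM in their control, as the 1 called gene of 4 tested there. It rose with shRNA, to 14.4 FPKM in the clones against 4.38 FPKM in the control clones. With shRNA 5 of 7 rose and 2 fell, against 36.3% and 39.2% of all tested symbols. ZIC2, a related zinc finger gene, was at 13.7 against 3.98 FPKM and CTNND1, the gene of p120 catenin, a known partner of GLIS2, at 43.6 against 80.1 FPKM. Of the close relatives of GLIS2, GLIS1 was tested in no comparison, and GLIS3 fell with shRNA, to 0.758 FPKM in the clones against 5.33 FPKM in the control clones for its main accession, with a sum of 1.53 against 6.71 FPKM.

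The outer kinetochore genes, whose products BOD1 works beside, had mostly lower levels in SKBR3, where BOD1 was higher. There, 16 of 19 tested outer kinetochore genes fell and 0 rose (0 higher at an unadjusted Cuffdiff p under 0.05), against 21% and 12.3% of all tested symbols, with a median log2 ratio of -0.69. AURKB, the Aurora B kinase, fell to 3.27 FPKM in siRNA cells against 8.45 FPKM in their control, SGO1, which protects centromeric cohesion, to 4.73 against 9.81 FPKM, and KIF2C, a microtubule depolymerase, to 7.73 against 15.9 FPKM. With shRNA 8 of 19 fell and 5 rose, against 39.2% and 36.3% of all tested symbols, and BUB3, a checkpoint gene, rose to 115 FPKM in the clones against 56.7 FPKM in the control clones. Cuffdiff called 0 of 20 with siRNA in HCC1954, where 1 was higher and 2 lower at an unadjusted p under 0.05. The difference between BOD1 and these genes was not tested.

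Of 20 tested genes of the BOD1 family, the PP2A-B56 phosphatase and the SETD1 methyltransferase complex, 3 rose and 2 fell in SKBR3, against 12.3% and 21% of all tested symbols. BOD1L1, a relative that protects stalled replication forks, rose there, to 4.38 FPKM in siRNA cells against 2.85 FPKM in their control. It fell with shRNA, to 6.02 FPKM in the clones against 12.5 FPKM in the control clones. BOD1L2 rose in SKBR3, to 3.04 against 1.77 FPKM, and was listed but not tested at 1.14 against 0.533 FPKM with siRNA and 3.68 against 1.44 FPKM with shRNA in HCC1954. Its transcript shares 5 of 1872 stretches of 50 bases with BOD1, and reads with mismatches could be split between them, so its value is uncertain. PPP2R5E, a B56 subunit of PP2A, rose in SKBR3 to 13.5 against 6.88 FPKM for its main accession, with a sum of 16.0 against 13.8 FPKM. With shRNA 3 of 18 rose and 7 fell, against 36.3% and 39.2% of all tested symbols. CXXC1 rose to 15.4 FPKM in the clones against 4.62 FPKM in the control clones for its main accession, with a sum of 17.0 against 7.88 FPKM. PPP2R5A, another B56 subunit, fell to 12.6 against 32.4 FPKM. With siRNA in HCC1954 Cuffdiff called 0 of 19, with 3 higher and 1 lower at an unadjusted p under 0.05.

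The other FAM110 genes gave little to compare. FAM110A fell with shRNA, to 11.9 FPKM in the clones against 20.4 FPKM in the control clones. It was not called with siRNA, at 48.7 against 46.0 FPKM in SKBR3 and 23.5 against 18.6 FPKM in HCC1954. FAM110B stood at or below 2.15 FPKM and FAM110D at or below 0.330 FPKM in every group, and neither was tested.

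Exact sequence sharing with other genes was low for 5 of the 6. Of all stretches of 50 bases in the main GENCODE transcript, none of 1994 in FUCA1 and none of 4277 in NRAS was found in a transcript of another gene on either strand. The share was 0.0522% for FAM110C, 0.267% for BOD1 and 0.537% for ALDH1B1. For GLIS2 it was 27.2%, all of it shared with a long non-coding gene on the other strand that overlaps GLIS2 by 1949 bases.

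The 6 genes lie on 5 chromosomes, and few of their expressed neighbours had larger ratios. Since the 6 genes were chosen for a rise in every comparison, this follows in part from the choice. ALDH1B1, for example, lay at percentiles 94.2, 99.1 and 84.3 of all expressed symbols in SKBR3, HCC1954 siRNA and HCC1954 shRNA. Nothing about the loci is read from it. Within 1 Mb there were 10 expressed genes around ALDH1B1, of which 0 had a larger log2 ratio than ALDH1B1 in any of the 3 comparisons. Their median log2 ratios were -0.052 in SKBR3, -0.0093 with siRNA and -0.32 with shRNA in HCC1954. With shRNA 6 of 8 tested neighbours fell and 1 rose, against 39.2% and 36.3% of all tested symbols. Of the 10 around NRAS, 0 had a larger log2 ratio than NRAS in any comparison, and their medians were 9.4e-05, -0.00095 and 0.14. Of 8 expressed neighbours of BOD1, 1 exceeded it in SKBR3 and 0 in HCC1954. The neighbour with the largest shRNA ratio was DUSP1, at 6.52 FPKM in the clones against 2.30 FPKM in the control clones, which also had the pattern most like BOD1.

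The neighbours of FUCA1 and GLIS2 had median ratios above 0 with shRNA, but not in every comparison. Of all expressed symbols, 48.8% lay above 0 with shRNA, 47.9% with siRNA in HCC1954 and 40% in SKBR3. Of 19 expressed genes around FUCA1, 15 had a log2 ratio above 0 with shRNA (median 0.26) and 11 in SKBR3 (median 0.10), against 8 with siRNA in HCC1954 (median -0.024). With shRNA 8 of 16 tested rose and 1 fell, against 36.3% and 39.2% of all tested symbols. Of 31 around GLIS2, 20 lay above 0 with shRNA (median 0.37) and 22 with siRNA in HCC1954 (median 0.16), against 13 in SKBR3 (median -0.051). With shRNA 9 of 21 tested rose and 3 fell, against 36.3% and 39.2% of all tested symbols. GLIS2 was exceeded by 2 of its 31 neighbours in SKBR3, by 1 with siRNA and by 3 with shRNA in HCC1954. FUCA1 was exceeded by 0 of its 19 in SKBR3 and by 1 in each HCC1954 comparison. FAM110C had 3 expressed neighbours, with medians of -0.083, -0.20 and 0.071.

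**Figure D4:**
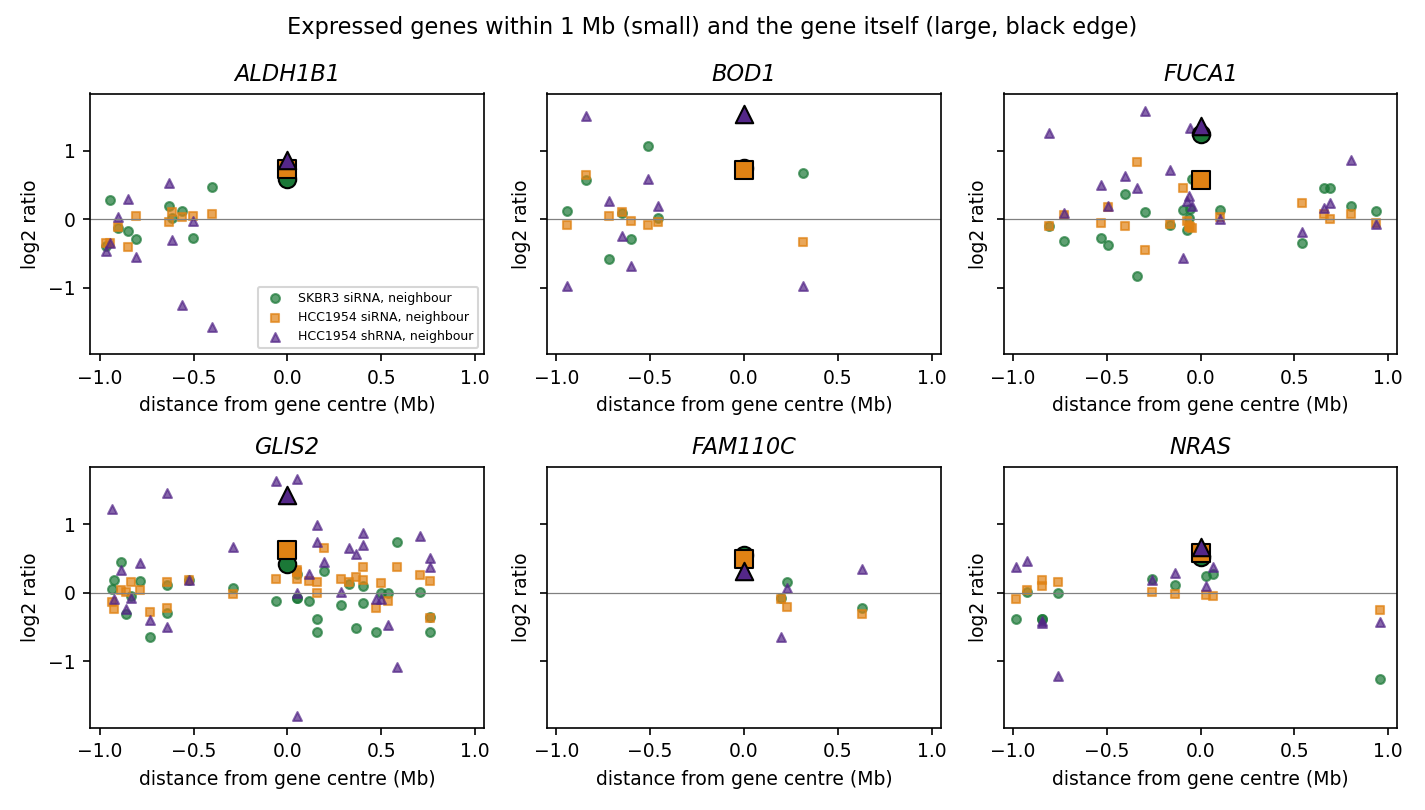
Log2 ratio of knockdown over control FPKM (y axis) of expressed genes within 1 Mb (small markers) by distance from the centre of each of the 6 genes (x axis, Mb), with the gene itself as large markers with a black edge, and 1 colour and marker shape per comparison. For NRAS and ALDH1B1 each large marker lies above all small ones of its comparison, while up to 3 of 31 neighbours of GLIS2 and 1 of 3 of FAM110C lie higher with shRNA. The 6 genes were chosen for ratios above 0 in each comparison, and their neighbours were not.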

How the data were processed

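The authors' deposited tables hold 1 pooled FPKM value per RefSeq accession and group. The submitters' processing notes list Bowtie 0.12.2, Cuffdiff, hg19 and GRCh37 without their roles. The p-value and q-value are those of the authors' deposited tables, as deposited. Dividing the log2 ratio by the authors' deposited statistic, a score, gave the implied standard error. For FAM110C with siRNA in HCC1954 the deposited Cuffdiff p was 3.5e-04 at a log2 ratio under 2 implied standard errors. With shRNA its deposited Cuffdiff p was 5e-05 at a log2 ratio of 0.31 and an implied error of 0.29. These errors do not match the deposited p-values and may be too large. The table with siRNA columns that name no line was taken as HCC1954 from its deposited name.

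Of 66321 accessions 65462 matched a symbol (RefSeq names, GRCh38.p14). FPKM were summed per symbol for the 6 genes, ranks, distances and neighbours, with no pseudocount. For the gene lists 1 accession stood for each symbol, that of highest FPKM on average over the groups, and a call is a deposited q under 0.05 with a completed test. The lists hold 127 entries other than the 6 genes. No model could be fitted, since no column holds a single sample. Neighbours were placed by the deposited loci, and coordinates of genes are those of GENCODE v44 lifted to GRCh37. Named genes are TFAP2C, the 6 genes, their paralogs, up to 4 called genes with the largest log2 ratio per list and comparison (1 FPKM or more in knockdown and in control), and the 3 nearest genes. Genes outside this rule (PAM16, PFDN4, ZFC3H1, NUP42, ERRFI1 and those of opposite calls) were named after their values were seen. Some genes that this rule names are not reported here. The members and lists were chosen with earlier results of these data known. The summing, calling and distance steps were tested on simulated data. Python 3.11.15, pandas 2.3.3 and numpy 2.4.6 were used.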

Additional observations from a re-analysis of the deposited data

Results flagged for a closer look

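Among the pathway genes with at least 1 FPKM in both groups, 11 were called in opposite directions in SKBR3 with siRNA and in HCC1954 with shRNA, which is what singled them out. Of the list entries other than the 6 genes, 96 were tested in SKBR3 and 93 with shRNA. Of all tested symbols, 12.3% were called higher and 21% lower in SKBR3, and 36.3% and 39.2% with shRNA. The share of opposite calls over all symbols was not counted, so nothing is read from the 11. The difference between the comparisons was not tested, and line, method and clone cannot be told apart. Of these, 5 were higher in SKBR3 siRNA cells and lower in shRNA clones. Their log2 ratios differed by 1.94 for FNTA, 1.91 for SOS2, 1.68 for BOD1L1, 0.93 for CTBS and 0.86 for SOS1. The other 6 were higher in shRNA clones and lower in SKBR3 siRNA cells. Their log2 ratios differed by 2.12 for SUFU, 1.56 for BUB1, 1.52 for BIRC5, 1.40 for KIF2C, 0.99 for WDR82 and 0.92 for BUB1B.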

How the results depend on the processing

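All 18 log2 ratios of the 6 genes stayed above 0 with the highest accession, curated accessions or tested accessions alone. They also did after centring on the median and with a pseudocount of 1 FPKM (0.27 to 1.56 over these settings). This was largely fixed in advance, since the genes were chosen for ratios above 0. ALDH1B1, FUCA1, FAM110C and NRAS have 1 accession each, so the accession settings could not change their ratios. A pseudocount added to both groups cannot change a sign, and centring on medians below 0 raises every ratio. Nothing is therefore read from the signs. The ratios moved by less than the implied standard error, which may be too large. The count of expressed symbols higher in all 3 comparisons, 1060, was 1856 with no minimum level, 646 with at least 5 FPKM and 2261 without the shRNA comparison, a setting added after seeing the data. Without it 61 symbols were called higher in place of 16. Of 48 list counts, 45 stayed close where any accession could make the call and 43 at q under 0.01. Where any accession could make the call, the aldehyde dehydrogenases had 2 rises in SKBR3 and 2 with shRNA, and the Hedgehog list 1 fall with shRNA. At q under 0.01 the aldehyde dehydrogenases had 0 rises with shRNA, the glycosidases 1 rise in SKBR3, the Hedgehog list 0 falls in SKBR3 and 0 rises with siRNA in HCC1954, and the BOD1 partners 0 falls in SKBR3. By distance over the 6 levels, 0 of the 18 nearest genes were shared. Within 5 Mb, the neighbours of FAM110C had medians of -0.28 in SKBR3 and -0.033 with siRNA in HCC1954. No paired analysis was possible because the tables hold no single samples, which also kept replicates from being left out. Depth is unknown, so no limit of detection can be given.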
